A study of Caenorhabditis elegans with 12 samples.

Results

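Of 46728 worm genes outside ribosomal RNA in the deposited tables, 8 were described here, namely *cye-1*, *cyb-1*, *cyb-2.1*, *cyb-2.2*, *cyb-3*, *cdk-1*, *wee-1.3* and *cdc-25.3*. They are genes of the cell cycle machinery that acts in oocyte maturation. The rule took them by name and gene identifier and used no measured value, though earlier results of these data were known when they were chosen. All 8 were present in every library and passed the filter on low values used for the comparisons, a mean over the 4 inputs of at least 5 TPM, the length-normalised transcript abundance, which 9244 of 20449 protein-coding genes passed.

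The libraries came from vIPR, in which living young adult worms are crosslinked and 1 messenger RNA is pulled down from the lysate with biotinylated probes, and each of the 12 conditions was sequenced in 1 library. There were 7 elutions. In 4 of them *gfp* probes were used, on BS1080 worms carrying a *gld-1::gfp* transgene (PAR-XL, PFA-XL and cXL) and on DG3913 worms with *gfp* at the *lin-41* locus (cXL). In the other 3 elutions transcript-specific probes for *gld-1*, *lin-41* or *alg-1* were used on N2 wild-type worms (cXL). The 4 inputs were lysates of BS1080 (PAR-XL and cXL), DG3913 (cXL) and N2 (cXL), and total RNA was extracted directly from BS1080 worms. Of its labels, the title carries PAR-XL and the description says that there was no crosslinking. PAR-XL is UV crosslinking after labelling with the nucleoside 4SU, cXL is UV crosslinking without labelling and PFA-XL uses paraformaldehyde. Worms for PAR-XL grew in liquid culture with 4SU and worms for cXL on plates, so the crosslinking method and the culture cannot be told apart. Worms for PFA-XL also grew on plates, and their lysates were sonicated as well. The PAR-XL input and elution were taken from independent pulldowns, and the 3 N2 elutions share 1 input.

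In the *C. elegans* gonad, oocytes arrest in meiotic prophase and resume meiosis when a sperm signal leads to activation of the kinase CDK-1 with its B-type cyclins. WEE-1.3 holds CDK-1 inactive by phosphorylation, CDC-25 phosphatases reverse this, and cyclin E acts earlier, in the mitotic germ cells. Many of these messenger RNAs are held back from translation until they are needed: GLD-1 represses *cye-1* in the meiotic gonad, and LIN-41 represses *cdc-25.3* in oocytes.

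The libraries held between 282487 (N2 *alg-1* elution) and 26861047 (PAR-XL input) estimated counts of worm genes outside ribosomal RNA. Elutions also held carrier RNA of HEK cells, a human embryonic kidney line, which took 66.6% to 96.5% of the deposited TPM and was left out. The target of the pulldown took between 17.6% and 59.0% of the TPM of an elution. The 8 members together had 558 to 828 TPM and 153 to 9315 counts in the 7 elutions, against 1039 to 1700.0 TPM and 20794 to 40789 counts in the 4 inputs and 1066 TPM in total RNA. Values are TPM rescaled to 1000000 over worm genes without ribosomal RNA, summed over the transcripts of a gene. They still include 3 entries that overlap ribosomal RNA, which the authors left out and which took 7.30% to 16.4% of the TPM of an elution, against 0.0671% to 1.24% in inputs and total RNA. Intervals are 95% and take in the counting error alone. No source used here names molecular identifiers, so reads are not taken as independent molecules, and no difference has a replicate check. All 6 of 6 oocyte markers (*rme-2*, *cpg-1*, *cpg-2*, *egg-1*, *egg-2* and *puf-5*) had at least 10 counts in all 12 libraries. The 6 genes of the early embryonic zygotic list summed to between 9.47 and 17.2 TPM in the inputs. Of these 6, 2 or 3 had at least 10 counts in each input, and *med-1* was at 0 in 3 of the 4 inputs. Most of each sum was *elt-7*, at 7.80 to 10.2 TPM in the inputs. Samples were whole worms, so fewer germ cells and less RNA per germ cell cannot be told apart.

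In the annotation the members have between 3 and 8 exons, coding sequences of 948 (*cdc-25.3*) to 2031 bases (*wee-1.3*) and 3′ UTRs of 153 (*cdc-25.3*) to 516 bases (*cye-1*). Among the members, *cyb-3* had the highest level in all 4 inputs and in total RNA, and *cdc-25.3* the lowest. In total RNA all 7 neighbours in the order of levels differed beyond counting error, and the order was *cyb-3*, *cyb-1*, *cyb-2.2*, *wee-1.3*, *cyb-2.1*, *cdk-1*, *cye-1* and *cdc-25.3*. In the elutions the order was another one. There *wee-1.3* had the highest level of the members with PAR-XL, with PFA-XL and with the N2 *lin-41* probes, although its lead over *cyb-3* was within counting error in each of these 3 libraries.

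Levels of elutions and inputs must be read with the target in mind, since what it takes lowers the TPM of the rest. With the target left out of the elutions, the members changed places relative to their inputs, and these values are given beside the levels. Only the target was left out. In the N2 *gld-1* elution *cpg-1* and *vit-6*, at 129701 and 95392 TPM, were still counted in and also lower the TPM of the rest. Ratios over the median gene, given further on, do not depend on what is left out.

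**Figure D1:**
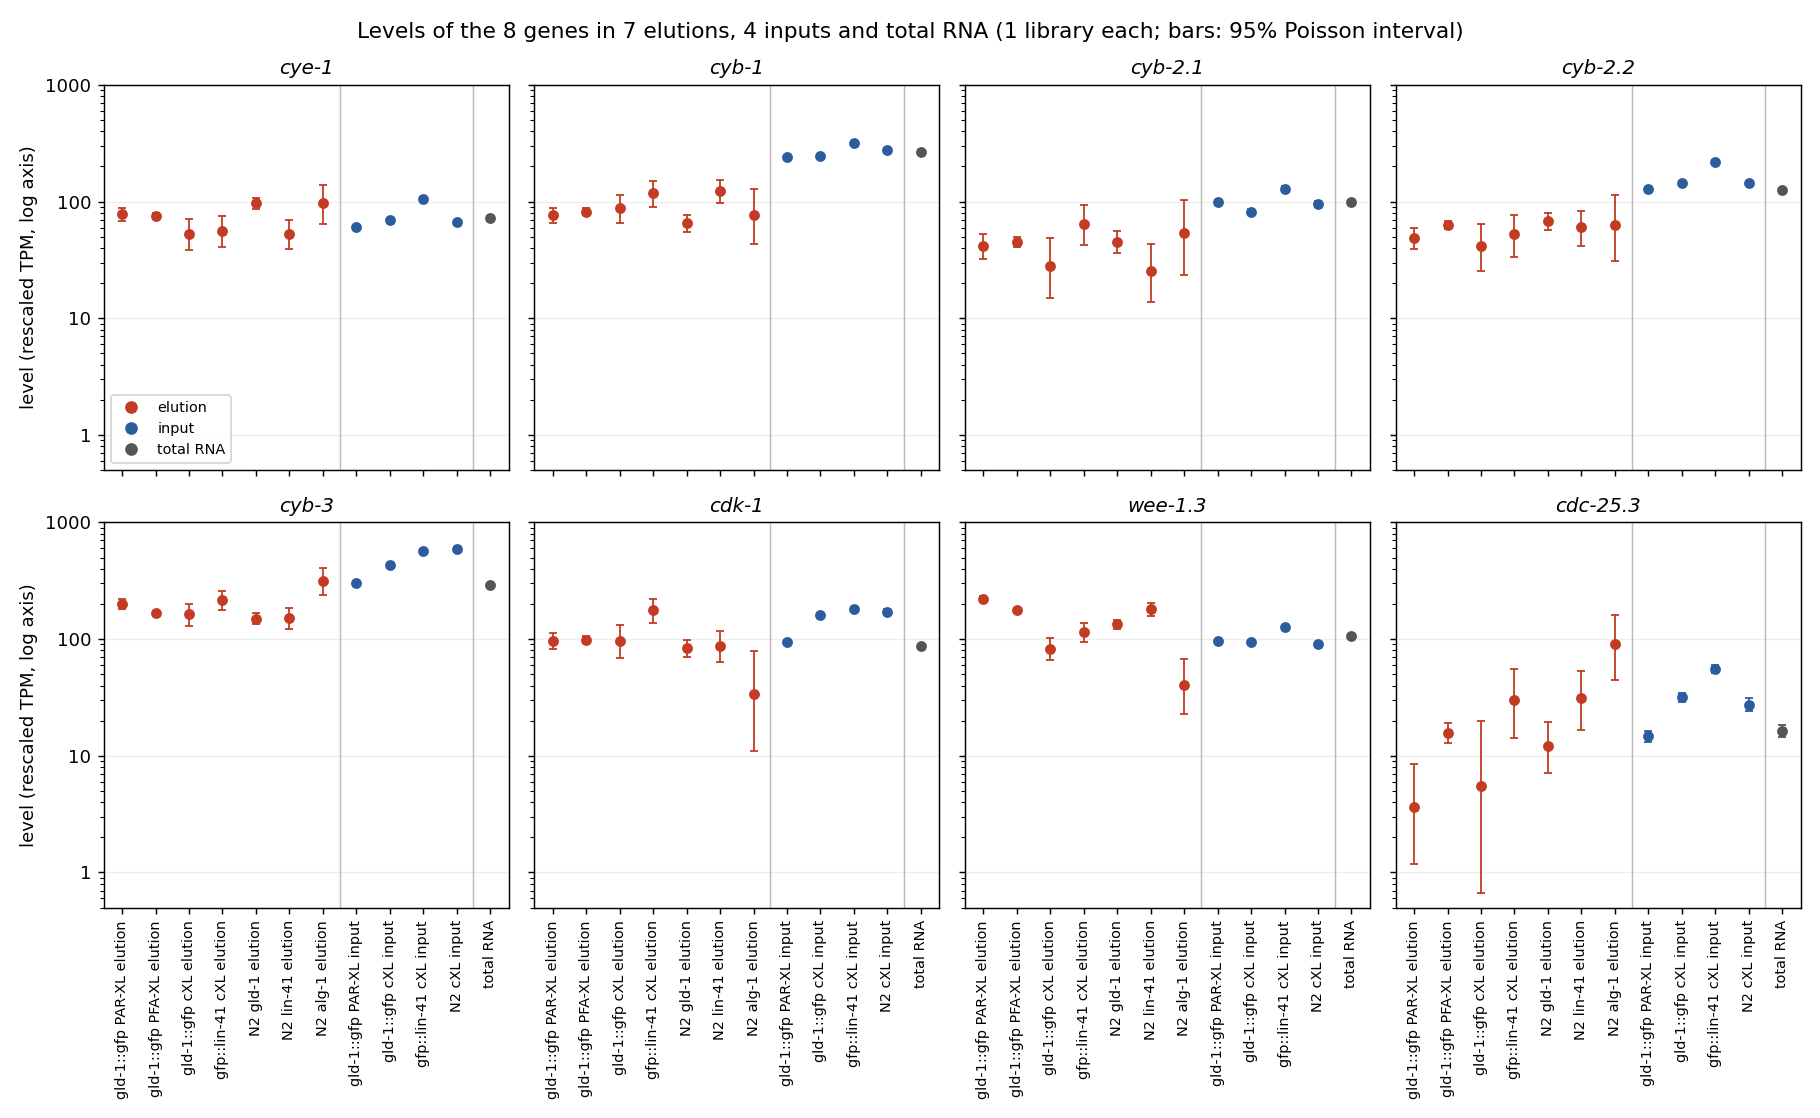
Level of each of the 8 genes (rescaled TPM, log axis) in 7 elutions (red), 4 inputs (blue) and total RNA (grey), 1 library each, with 95% Poisson intervals of the counts. The elution levels of *cyb-1*, *cyb-2.1* and *cyb-2.2* lie below all 4 input levels with the target counted in, those of *cye-1* and *wee-1.3* overlap the input levels, and *cdc-25.3* has the widest intervals.

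The B-type cyclin genes *cyb-3* and *cyb-1* were the most abundant members before pulldown, and *cyb-1*, *cyb-2.1* and *cyb-2.2* had lower levels in every elution than in any input as long as the target was counted in. The gene *cyb-1*, which encodes cyclin B1 (WBGene00000865, chromosome IV of WBcel235, 10735324 to 10737181, plus strand), had 76.1 TPM with PAR-XL, 81.9 TPM with PFA-XL and 87.4 TPM with cXL in the *gld-1::gfp* elutions and 118 TPM in the *gfp::lin-41* elution. It had 65.2, 123 and 77.3 TPM in the N2 elutions with *gld-1*, *lin-41* and *alg-1* probes. Against these stood 242 TPM (PAR-XL) and 246 TPM (cXL) in the *gld-1::gfp* inputs, 318 TPM in the *gfp::lin-41* input, 277 TPM in the N2 input and 268 TPM in total RNA. All 7 elutions thus lay below all 4 inputs, and within the elutions no neighbours in the order of levels differed beyond counting error. With the target left out, 5 of the 7 elutions were below every input, and the *gfp::lin-41* and N2 *lin-41* elutions, at 253 and 265 TPM, lay among the inputs.

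For *cyb-3*, which encodes cyclin B3 (WBGene00000868, chromosome V, 15395696 to 15397348, plus strand), the *gld-1::gfp* elutions had 199.6 TPM (PAR-XL), 166 TPM (PFA-XL) and 163 TPM (cXL), and the *gfp::lin-41* elution 216 TPM. The N2 elutions had 149.8 TPM with *gld-1* probes, 151 TPM with *lin-41* probes and 313 TPM with *alg-1* probes. In the inputs *cyb-3* had 305 TPM (*gld-1::gfp*, PAR-XL), 432 TPM (*gld-1::gfp*, cXL), 568.2 TPM (*gfp::lin-41*) and 587 TPM (N2), and in total RNA 292 TPM. The highest elution, that with *alg-1* probes at 59 counts, thus overlapped the lowest input. Without the target, 6 of 7 elutions lay among the inputs, at 325 to 462 TPM. That with *gld-1* probes, where *cpg-1* and *vit-6* were still counted in, lay below them at 214 TPM.

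The paralogs *cyb-2.1* (WBGene00000866, chromosome IV, 10985985 to 10987426, plus strand) and *cyb-2.2* (WBGene00000867, chromosome I, 4114734 to 4116369, plus strand) encode further B-type cyclins. Their estimated counts were not whole in the elutions, as where kallisto divides reads between similar transcripts, so their sum is the firmer value. The sum was 89.97 TPM (PAR-XL), 109 TPM (PFA-XL) and 70.1 TPM (cXL) in the *gld-1::gfp* elutions, 117 TPM in the *gfp::lin-41* elution, and 113, 85.6 and 117 TPM in the N2 elutions with *gld-1*, *lin-41* and *alg-1* probes. It was 227 TPM in both *gld-1::gfp* inputs, 347 TPM in the *gfp::lin-41* input, 239 TPM in the N2 input and 225 TPM in total RNA. Taken apart, *cyb-2.1* ran from 25.5 to 64.4 TPM over the 7 elutions, against 82.3 to 129 TPM over the 4 inputs. Likewise, *cyb-2.2* ran from 41.8 to 67.8 TPM in elutions, against 127 to 218 TPM in inputs. Without the target, the sum lay below every input in 5 of 7 elutions and among the inputs in the PFA-XL and *gfp::lin-41* elutions, at 265 and 250.03 TPM.

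The kinase gene *cdk-1* (WBGene00000405, chromosome III, 9747432 to 9748852, plus strand), the catalytic partner of the B-type cyclins, had elution and input levels that overlapped, as for *cyb-3*. It had 97.1 TPM (PAR-XL), 98.4 TPM (PFA-XL) and 96.0 TPM (cXL) in the *gld-1::gfp* elutions, 176 TPM in the *gfp::lin-41* elution, and 83.1, 87.9 and 33.6 TPM in the N2 elutions with *gld-1*, *lin-41* and *alg-1* probes. It had 93.7 TPM (PAR-XL) and 162 TPM (cXL) in the *gld-1::gfp* inputs, 181 TPM in the *gfp::lin-41* input, 172 TPM in the N2 input and 86.6 TPM in total RNA. The *gfp::lin-41* elution stood 1.79 times above the next elution (95% CI 1.41 to 2.28). At the low end, the *alg-1* elution rests on 5 counts. Once the target was left out, 5 of 7 elutions lay above every input, at 189 to 378 TPM. The lowest of these, with *lin-41* probes, rests on 44 counts, and these leads were not set against counting error.

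The gene *wee-1.3* encodes the inhibitory kinase of CDK-1 (WBGene00006940, chromosome II, 9713661 to 9716467, minus strand) and had elution levels on both sides of its inputs as long as the target was counted in. Its levels were 220.4 TPM (PAR-XL), 176 TPM (PFA-XL) and 82.6 TPM (cXL) in the *gld-1::gfp* elutions and 114.9 TPM in the *gfp::lin-41* elution. With N2 worms they were 134 TPM (*gld-1* probes), 179.8 TPM (*lin-41* probes) and 40.7 TPM (*alg-1* probes). The inputs had 95.5 TPM (*gld-1::gfp*, PAR-XL), 94.0 TPM (*gld-1::gfp*, cXL), 126 TPM (*gfp::lin-41*) and 91.5 TPM (N2), and total RNA had 107 TPM. PAR-XL, PFA-XL and N2 *gld-1* and *lin-41* elutions thus lay above every input, on 860, 3499, 530 and 214 counts. The N2 *gld-1* elution was within counting error of the highest input (ratio 1.07, 95% CI 0.973 to 1.17). The *gld-1::gfp* cXL and N2 *alg-1* elutions lay below every input, on 82 and 15 counts. Here the lowest input was within counting error of the *gld-1::gfp* cXL elution (ratio 1.11, 95% CI 0.889 to 1.38). With the target left out, 6 of 7 elutions were above every input, at 189 to 436 TPM, the *gld-1::gfp* cXL elution among them, and that with *alg-1* probes stayed below at 49.5 TPM.

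The cyclin E gene *cye-1* (WBGene00000871, chromosome I, 6780806 to 6784534, plus strand) had overlapping levels in elutions and inputs. The *gld-1::gfp* elutions had 78.2 TPM (PAR-XL), 75.5 TPM (PFA-XL) and 53.0 TPM (cXL), the *gfp::lin-41* elution 56.1 TPM, and the N2 elutions 96.5 TPM (*gld-1* probes), 52.6 TPM (*lin-41* probes) and 96.7 TPM (*alg-1* probes). The inputs had 60.9 TPM (*gld-1::gfp*, PAR-XL), 69.3 TPM (*gld-1::gfp*, cXL), 105 TPM (*gfp::lin-41*) and 66.6 TPM (N2), and total RNA had 72.3 TPM. With the target left out, all 7 elutions lay above every input, at 113 to 184 TPM. The N2 *lin-41*, N2 *alg-1*, *gfp::lin-41* and *gld-1::gfp* cXL elutions, at 113, 117, 120 and 121 TPM, rest on 52, 29, 44 and 44 counts. The highest input had 105 TPM, and these leads were not set against counting error. A transfer RNA gene of 72 bases lies within the *cye-1* gene on the same strand.

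The phosphatase gene *cdc-25.3* (WBGene00000388, chromosome III, 8916417 to 8917929, minus strand) was the rarest member except in the N2 elutions with *lin-41* and *alg-1* probes. It had 3.67 TPM (PAR-XL, 5 counts), 15.7 TPM (PFA-XL, 109 counts) and 5.46 TPM (cXL, 2 counts) in the *gld-1::gfp* elutions and 29.9 TPM (10 counts) in the *gfp::lin-41* elution. In the N2 elutions it had 12.2 TPM (*gld-1* probes, 17 counts), 31.1 TPM (*lin-41* probes, 13 counts) and 90.1 TPM (*alg-1* probes, 11 counts). The inputs had 14.7 TPM (*gld-1::gfp*, PAR-XL), 31.8 TPM (*gld-1::gfp*, cXL), 55.1 TPM (*gfp::lin-41*) and 27.3 TPM (N2), and total RNA had 16.3 TPM. Only the *alg-1* elution lay above every input, and with the target left out so did the *gfp::lin-41* and N2 *lin-41* elutions, at 64.0 and 66.9 TPM. The gene overlaps *trxr-2*, a thioredoxin reductase gene on the plus strand, by 330 bases. No source used here states that kallisto read the strand. Estimated counts of both genes were not whole in the inputs and total RNA, as where kallisto divides reads between transcripts. Reads of the overlap therefore cannot be told apart.

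For these reasons elution over input was read relative to the median gene, that is, divided by the median ratio of all tested genes (0.410 for PAR-XL, 0.295 for *gld-1::gfp* with cXL, 0.362 for *gfp::lin-41*, and 0.371, 0.436 and 0.364 for the N2 *gld-1*, *lin-41* and *alg-1* pulldowns). A gene was called when it lay at least 2-fold from the median gene with an interval that left the median gene out. With 1 library per condition no test could be run, and the share of all tested genes that met the same rule is given as background.

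With PAR-XL, 3 of 8 members were called above the median gene (*cye-1*, *cdk-1* and *wee-1.3*) and 0 below, where 22.4% of 9235 tested genes were called above and 19.6% below. The cXL pulldown of *gld-1::gfp* also had 3 above (again *cye-1*, *cdk-1* and *wee-1.3*) and 0 below, against 17.5% and 5.24% of 9191 genes. For *gfp::lin-41*, 2 members were above (*cdk-1* and *wee-1.3*) and 0 below, against 15.8% and 4.95% of 9175 genes. With *gld-1* probes on N2 worms, 2 were above (*cye-1* and *wee-1.3*) and 0 below, against 20% and 13.5% of 9143 genes. The *lin-41* probes gave 2 above (*wee-1.3* and *cdc-25.3*) and 0 below, against 19.2% and 8.01% of genes. The *alg-1* probes gave 2 above (*cye-1* and *cdc-25.3*) and 0 below, against 20.4% and 2.52% of genes. Beside these backgrounds, counts of 2 or 3 among 8 are no result about the members as a set. The median of the 8 members over the median gene was 1.3 (PAR-XL), 1.24 (*gld-1::gfp*, cXL), 1.43 (*gfp::lin-41*), 1.28 (*gld-1* probes), 1.1 (*lin-41* probes) and 1.35 (*alg-1* probes). The direction rests on the division by the median gene. By the undivided ratio, 1 member was called above and 4 below with PAR-XL, 0 and 5 for *gld-1::gfp* with cXL, 0 and 4 for *gfp::lin-41*, and 0 and 6, 0 and 4, and 1 and 4 with *gld-1*, *lin-41* and *alg-1* probes. Of the B-type cyclins, *cyb-1* and *cyb-2.2* were among those below in each. The share of all tested genes called by the undivided ratio was not computed. The median gene itself had an undivided ratio of 0.295 to 0.436, more than 2-fold below the input in each pulldown. These undivided counts are therefore no result about the members.

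**Figure D2:**
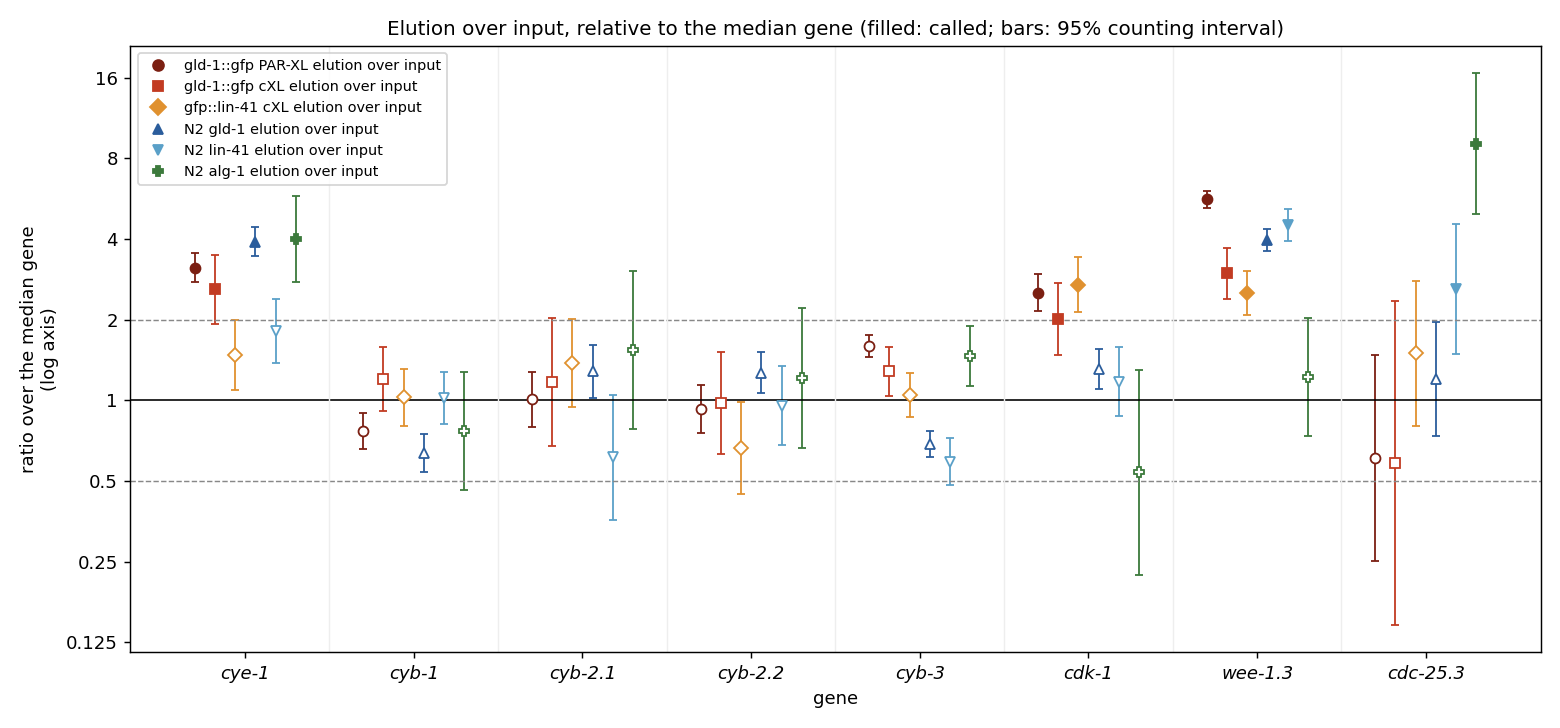
Elution over input of each member divided by the ratio of the median gene (log axis), for the 6 pulldowns with an input; bars are 95% counting intervals, filled symbols are called, the solid line is the median gene and dashed lines are 2-fold from it. The symbols of the B-type cyclins all lie between the dashed lines, those of *wee-1.3* lie between 1.22 and 5.62, and *cdc-25.3* runs from 0.584 to 9.06.

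The gene *wee-1.3* stood 5.62-fold above the median gene with PAR-XL (95% CI 5.24 to 6.04), 2.98-fold in the *gld-1::gfp* cXL pulldown (95% CI 2.40 to 3.71) and 2.52-fold in the *gfp::lin-41* pulldown (95% CI 2.09 to 3.05). In N2 worms it stood 3.95-fold above with *gld-1* probes (95% CI 3.60 to 4.34) and 4.50-fold with *lin-41* probes (95% CI 3.92 to 5.18). Before division by the median gene, its elution over input was 2.31 with PAR-XL and 1.47 and 1.964 with *gld-1* and *lin-41* probes, but 0.879 for *gld-1::gfp* with cXL and 0.913 for *gfp::lin-41*. With *alg-1* probes the value over the median gene was 1.22 on 15 counts, and its interval of 0.737 to 2.03 held both the median gene and a 2-fold difference. So a *wee-1.3* value as high as in the other pulldowns was not seen there, at the lowest depth of all libraries.

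The gene *cye-1* was 3.13-fold above the median gene with PAR-XL (95% CI 2.75 to 3.56) and 2.59-fold with cXL in *gld-1::gfp* worms (95% CI 1.93 to 3.50). It was 3.91-fold above with *gld-1* probes (95% CI 3.46 to 4.42) and 4.00-fold with *alg-1* probes on N2 worms (95% CI 2.77 to 5.77). Undivided, these ratios were 1.28, 0.765, 1.45 and 1.45, so that only the *gld-1::gfp* cXL call lay below its input. In both *lin-41* pulldowns *cye-1* was not called, at 1.48 for *gfp::lin-41* (95% CI 1.1 to 1.99) and 1.81 for N2 *lin-41* probes (95% CI 1.37 to 2.39).

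The gene *cdk-1* was called in the 3 pulldowns with *gfp* probes, at 2.53-fold with PAR-XL (95% CI 2.15 to 2.97), 2.01-fold for *gld-1::gfp* with cXL (95% CI 1.47 to 2.75) and 2.70-fold for *gfp::lin-41* (95% CI 2.13 to 3.42). Undivided, these were 1.04, 0.593 and 0.976, the last 2 of them below the input. In N2 worms the values of *cdk-1* over the median gene were 1.31 for *gld-1* probes (95% CI 1.1 to 1.55), 1.17 for *lin-41* probes (95% CI 0.871 to 1.58) and 0.538 for *alg-1* probes (95% CI 0.224 to 1.29). The interval for *gld-1* probes does not overlap those of PAR-XL and *gfp::lin-41*, but it overlaps that of *gld-1::gfp* with cXL. Only the last of these shares both cXL and a *gld-1* transcript as target with the *gld-1* probes. Strain and probes changed together between the *gld-1* probes and each of these pulldowns. With PAR-XL, crosslinking, labelling, culture and depletion of ribosomal RNA changed as well, and for *gfp::lin-41* the target did. These differences cannot be told apart.

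None of the B-type cyclins was called in any of the 6 pulldowns. Over the median gene *cyb-1* ran from 0.636 with *gld-1* probes to 1.20 in the *gld-1::gfp* cXL pulldown, and the sum of *cyb-2.1* and *cyb-2.2* from 0.820 with *lin-41* probes to 1.34 with *alg-1* probes. The range of *cyb-3* was wider, at 1.60 with PAR-XL (95% CI 1.45 to 1.76), 0.689 with *gld-1* probes (95% CI 0.615 to 0.771) and 0.590 with *lin-41* probes (95% CI 0.481 to 0.723), with intervals on both sides of the median gene.

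Within a library 2 members can be compared without any scaling, and the pairs below were chosen after their values were seen. The level of *wee-1.3* over that of *cyb-1* was 2.90 in the PAR-XL elution (95% CI 2.45 to 3.42), and the PFA-XL elution had 2.15 (95% CI 2.0 to 2.31). It was 0.945 (95% CI 0.666 to 1.34) in the *gld-1::gfp* cXL elution and 0.973 (95% CI 0.714 to 1.33) in the *gfp::lin-41* elution. In the N2 elutions it was 2.06 with *gld-1* probes, 1.46 with *lin-41* probes and 0.527 with *alg-1* probes, against 0.331 to 0.396 in the 4 inputs and 0.398 in total RNA. The enrichment of *wee-1.3* over input was 7.33 times that of *cyb-1* with PAR-XL (95% CI 6.19 to 8.68). With cXL in the same strain it was 2.48 times (95% CI 1.74 to 3.52), and these intervals do not overlap. Crosslinking, 4SU labelling, culture and depletion of ribosomal RNA changed together between the PAR-XL and the cXL pulldown and cannot be told apart. For *gfp::lin-41* the enrichment of *wee-1.3* was 2.46 times that of *cyb-1* (95% CI 1.80 to 3.36). The N2 pulldowns, also with cXL, had 6.22 times with *gld-1* probes (95% CI 5.16 to 7.50), which overlaps the PAR-XL interval, 4.42 times with *lin-41* probes (95% CI 3.40 to 5.75) and 1.59 times with *alg-1* probes (95% CI 0.778 to 3.27).

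With *alg-1* probes *cdc-25.3* stood 9.06-fold above the median gene (95% CI 4.95 to 16.6), and with *lin-41* probes 2.61-fold (95% CI 1.49 to 4.56). These calls rest on 11 and 13 counts. The overlapping *trxr-2* stood 12.8-fold above the median gene (95% CI 6.51 to 25.05) in the *alg-1* elution, on 9 counts, and had 1 count in the *lin-41* elution. In the remaining pulldowns *cdc-25.3* was not called, with 2 to 17 counts and values between 0.584 and 1.5.

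In each of the 6 pulldowns, the median ratio of elution over input was higher the longer the length class of the transcripts. Tested genes of 800 to 1200 bases had medians between 0.75 and 0.90 of the median gene, and those of 2000 to 2600 bases had medians between 1.20 and 1.32. Genes with no counts in an elution have part in this, since the median of genes under 800 bases was 0 with *alg-1* probes. Among genes with counts the correlation of log2 length and log2 ratio, across genes, was 0.15 (PAR-XL), 0.0039 (*gld-1::gfp*, cXL), 0.11 (*gfp::lin-41*), 0.14 (*gld-1* probes), 0.073 (*lin-41* probes) and -0.034 (*alg-1* probes). The members called most, *wee-1.3* with 2480 bases and *cye-1* with 2114 bases, are the longest, and *cdk-1* with 1225 bases is not. Relative to the median of genes within 20% of its own length, a comparison added after seeing the data, *wee-1.3* was 4.25-fold above with PAR-XL, 2.44-fold for *gld-1::gfp* with cXL, 1.99-fold for *gfp::lin-41*, 3.08-fold with *gld-1* probes and 3.60-fold with *lin-41* probes. The call for *gfp::lin-41* was thereby lost. On the same scale *cye-1* was 2.63-fold (PAR-XL), 2.26-fold (*gld-1::gfp*, cXL), 3.35-fold (*gld-1* probes) and 3.07-fold (*alg-1* probes) above, and *cdk-1* was 2.58-fold (PAR-XL), 2.08-fold (*gld-1::gfp*, cXL) and 2.91-fold (*gfp::lin-41*) above.

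**Figure D3:**
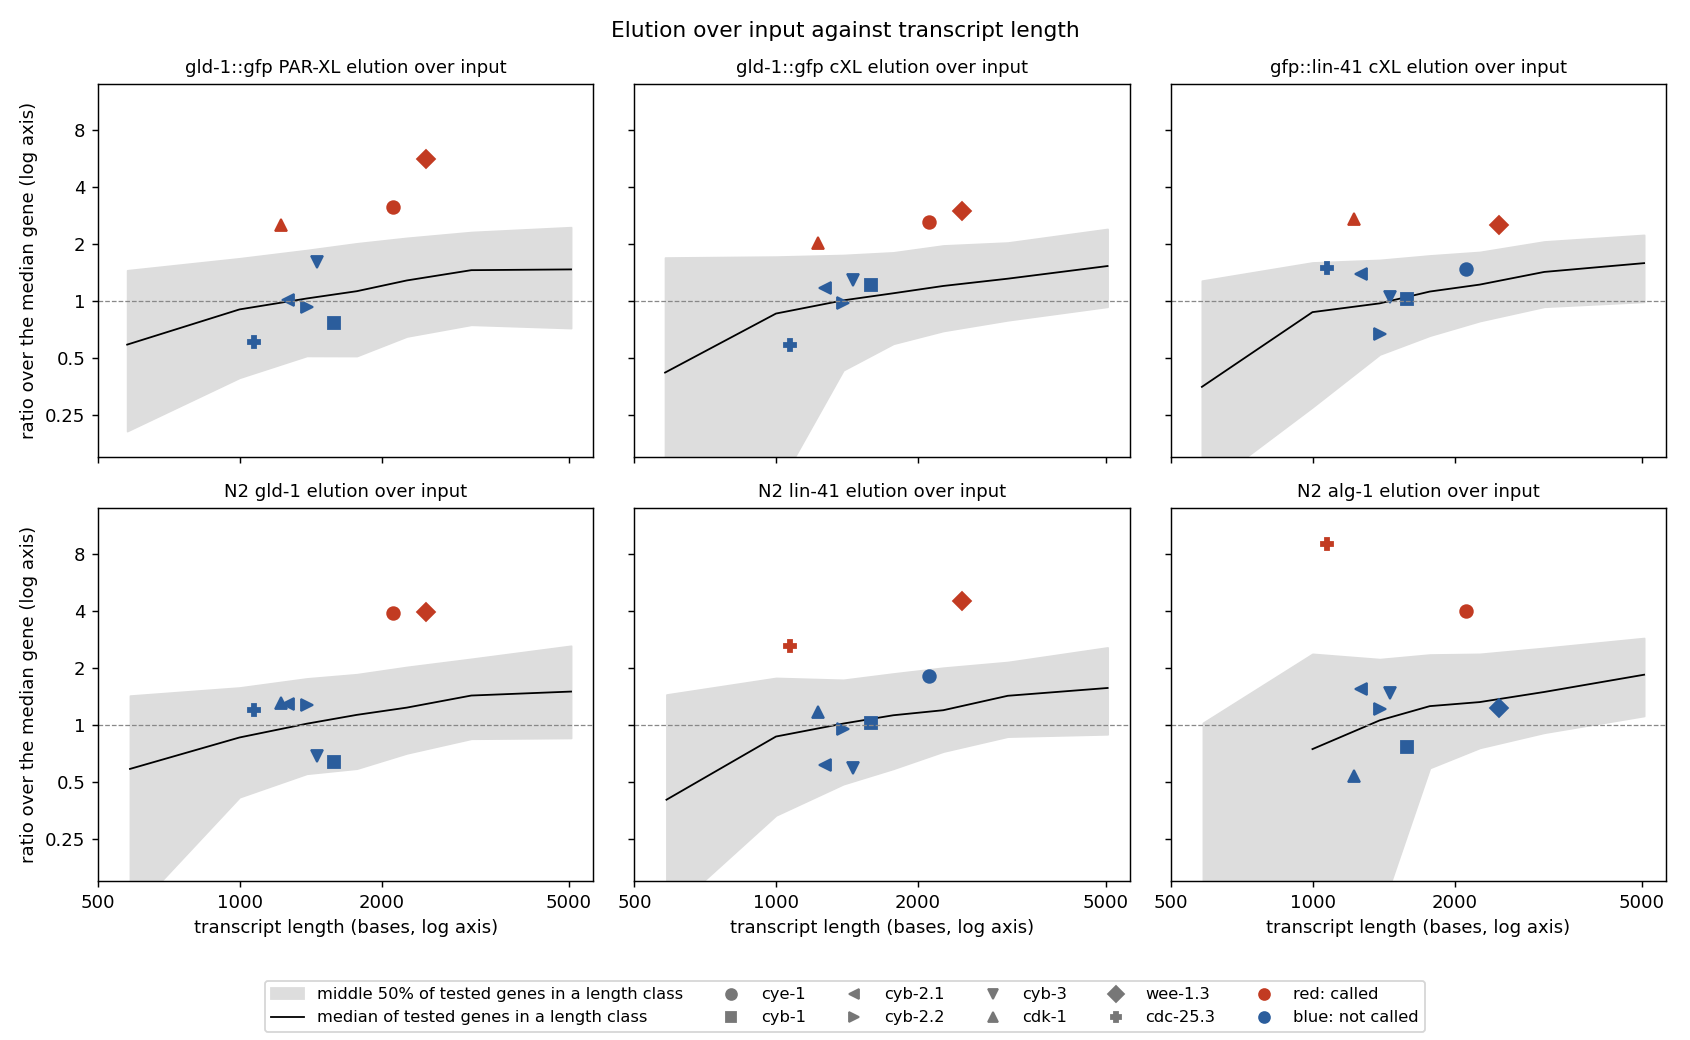
Elution over input relative to the median gene (log axis) against transcript length in bases (log axis), 1 panel for each of the 6 pulldowns; lines and grey bands are the median and the middle 50% of tested genes in 7 length classes, a line is left out where the median is 0, and symbols are the members, in red where called. The called members lie above the band in every panel in which they are called.

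Markers of oocytes and of somatic tissue were read in the same ratios. Over the median gene, the median of the 6 oocyte markers was 1.26 (PAR-XL), 1.12 (*gld-1::gfp*, cXL), 1.33 (*gfp::lin-41*), 1.20 (*gld-1* probes), 0.75 (*lin-41* probes) and 1.01 (*alg-1* probes). The median of the 6 soma markers was 0.52, 0.47, 0.81, 0.33, 0.33 and 0.70 in the same order. With PAR-XL the soma list was split. There *vit-2* and *vit-6* were at 1.90 and 1.71, above the median of the oocyte markers, and the others ran from 0.184 (*unc-54*) to 0.540 (*elt-2*). In the *gld-1* elution from N2 worms the oocyte marker *cpg-1* was at 129701 TPM and the soma marker *vit-6* at 95392 TPM, while the other 4 members of the soma list with counts and the other 5 oocyte markers lay between 10.2 and 949 TPM. The 6 sperm markers had low levels, at 0 to 27 TPM summed in each elution, with all 6 at 0 with *alg-1* probes. The part of these values in the results of the members was not tested.

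Other genes of the same machinery were read from lists chosen with earlier results of these data known. The shares of all tested genes called above the median gene, against which their counts are to be read, were 22.4% (PAR-XL), 17.5% (*gld-1::gfp*, cXL), 15.8% (*gfp::lin-41*), 20% (*gld-1* probes), 19.2% (*lin-41* probes) and 20.4% (*alg-1* probes). Of 14 further cyclin and CDK regulators, 11 could be tested, and 3 were called above the median gene with PAR-XL, 1 for *gld-1::gfp* with cXL, 3 for *gfp::lin-41*, and 1, 3 and 1 with *gld-1*, *lin-41* and *alg-1* probes. None was called below except 1 with *gld-1* probes. The cyclin A gene *cya-1* was above in each pulldown, at 3.18, 2.02 and 2.13 in the pulldowns with *gfp* probes (first both *gld-1::gfp* pulldowns, PAR-XL before cXL, then *gfp::lin-41*) and at 2.99, 4.80 and 4.20 with *gld-1*, *lin-41* and *alg-1* probes. The CDK inhibitor gene *cki-2* was called at 2.73 with PAR-XL, 4.01 for *gfp::lin-41* and 3.64 with *lin-41* probes.

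Of 5 mitotic kinase genes, 1 each was above with PAR-XL and for *gld-1::gfp* with cXL, 3 for *gfp::lin-41* and 1 with each set of transcript-specific probes, and 1 was below with *lin-41* probes. A count of 1 of 5 is near the background share. The Aurora A kinase gene *air-1* was at 11.9 with PAR-XL (95% CI 11 to 12.8) and at 5.0 for *gld-1::gfp* with cXL (95% CI 4.06 to 6.15), whereas it was at 1.07 with *lin-41* probes and at 1.12 with *alg-1* probes. Of 12 genes of the anaphase-promoting complex and its activators, 6, 3 and 2 were above in the pulldowns with *gfp* probes and 4, 4 and 3 with *gld-1*, *lin-41* and *alg-1* probes, and 0 below in any. Among these, *apc-2* ran from 1.29 (*gfp::lin-41*) to 3.05 (*gld-1::gfp*, cXL) over the 6 pulldowns and was called in 4. The activator gene *fzr-1* ran from 1.37 (*gld-1* probes) to 4.21 (PAR-XL) and was called in 3. The subunit gene *apc-11* was at 2.11 to 5.96, on 2 to 13 counts.

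Of 13 genes of oocyte maturation signalling, 12 were tested, or 11 in both *lin-41* pulldowns, where *lin-41* was the target. Of these, 6 were above and 1 below with PAR-XL, 3 and 0 for *gld-1::gfp* with cXL, and 4 and 0 for *gfp::lin-41*. Below the median gene, 19.6% of all tested genes were called with PAR-XL and 8.01% with *lin-41* probes. The N2 pulldowns had 3 above and 1 below with *gld-1* probes, 1 and 2 with *lin-41* probes, and 4 and 0 with *alg-1* probes. The MAP kinase gene *mpk-1* ran from 1.29 (*alg-1* probes) to 4.43 (PAR-XL, 95% CI 3.95 to 4.97), with a median of 2.169 over the 6 pulldowns, and was called in 4. The DYRK kinase gene *mbk-2*, which acts at the transition to the embryo, ran from 1.64 (*alg-1* probes) to 5.16 (PAR-XL, 95% CI 4.85 to 5.48), with a median of 2.19, and was called in 4. Where it was not the target, *lin-41* was at 3.71 with PAR-XL, 3.76 for *gld-1::gfp* with cXL, 4.48 with *gld-1* probes and 24.97 with *alg-1* probes.

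Of the 8 members, 1 was called in the PFA-XL over the PAR-XL elution of *gld-1::gfp*, which was made because no PFA-XL input was used here. Crosslinking agent, 4SU labelling, culture and sonication changed together between these libraries and cannot be told apart. The member called was *cdc-25.3* at 4.95-fold above the median gene (95% CI 2.02 to 12.1), on 109 counts with PFA-XL and 5 with PAR-XL, where 4.38% of 8731 tested genes were called above and 8.26% below. The other 7 members lay between 0.924 (*wee-1.3*, 95% CI 0.857 to 0.995) and 1.52 (*cyb-2.2*, 95% CI 1.22 to 1.89). The PAR-XL elution also enters the PAR-XL elution over input, so the low count of *cdc-25.3* there enters both. The overlapping *trxr-2* was at 0.817 (95% CI 0.461 to 1.45) in the PFA-XL over the PAR-XL elution.

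**Figure D4:**
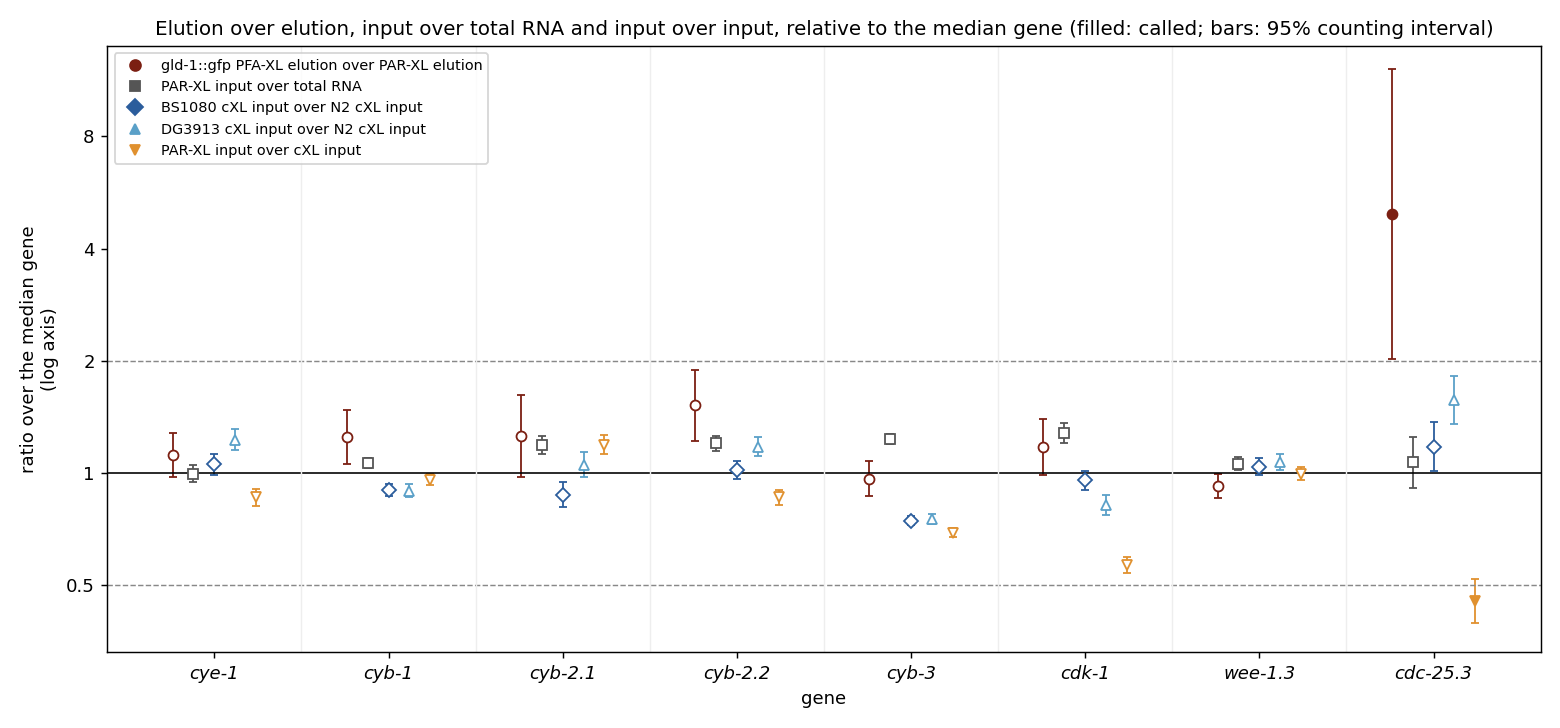
Ratios of the members relative to the median gene (log axis) for the PFA-XL over the PAR-XL elution, the PAR-XL input over total RNA, the BS1080 and the DG3913 cXL input over the N2 cXL input, and the PAR-XL over the cXL input of BS1080; bars are 95% counting intervals, filled symbols are called and dashed lines are 2-fold from the median gene. Only *cdc-25.3* has filled symbols, at 4.95 and 0.453.

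In the lysate set against direct extraction, the PAR-XL input over total RNA, 0 of 8 members were called, where 0.985% of 9239 tested genes were called above the median gene and 3.24% below. The members lay between 0.995 (*cye-1*, 95% CI 0.945 to 1.05) and 1.28 (*cdk-1*, 95% CI 1.20 to 1.36) of the median gene. After *cdk-1* came *cyb-3* (1.23, 95% CI 1.20 to 1.27) and the sum of *cyb-2.1* and *cyb-2.2* (1.19, 95% CI 1.15 to 1.24). The intervals of all members but *cye-1* and *cdc-25.3* lay above the median gene, though none of these members reached a 1.5-fold difference. The 6 oocyte markers lay between 1.12 and 1.49 of the median gene, with a median of 1.33, and their part was not tested. Whether crosslinking also differed depends on which label of the total RNA holds.

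Between strains, 0 of 8 members were called in the cXL input of BS1080 over that of N2, where 3.02% of 9144 genes were called above and 0.875% below, and 0 in that of DG3913 over N2, where 4.2% were called above and 1.8% below. Both comparisons share the N2 input. The lowest member in both was *cyb-3*, at 0.745 (95% CI 0.723 to 0.767) in BS1080 and at 0.753 (95% CI 0.731 to 0.776) in DG3913. The highest was *cdc-25.3*, at 1.18 (95% CI 1.01 to 1.37) in BS1080 and at 1.57 (95% CI 1.35 to 1.82) in DG3913, the strain with *gfp* at *lin-41*. By level, *cdc-25.3* had 55.1 TPM in the DG3913 input against 27.3 TPM in the N2 input, and the median gene itself was 1.28-fold higher there. The overlapping *trxr-2* was at 0.989 (95% CI 0.800 to 1.22) in DG3913 over N2. The summed oocyte markers were at 4879 TPM in DG3913 and 5316 TPM in N2, and their part was not tested.

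Between the inputs of BS1080, PAR-XL over cXL, 1 of 8 members was called below the median gene and 0 above, where 3.6% of 9192 genes were called below and 16.2% above. This was *cdc-25.3* at 0.453 (95% CI 0.396 to 0.519), while its overlapping neighbour *trxr-2* was at 1.11 (95% CI 0.939 to 1.32). Next came *cdk-1* at 0.566 (95% CI 0.538 to 0.596) and *cyb-3* at 0.691 (95% CI 0.673 to 0.710), while *wee-1.3* was at 0.995 (95% CI 0.956 to 1.03) and the sum of *cyb-2.1* and *cyb-2.2* at 0.979 (95% CI 0.944 to 1.02). The 6 oocyte markers summed to 2759 TPM in the PAR-XL input and 4502 TPM in the cXL input, the 6 sperm markers to 154 and 58.8 TPM, and the 6 soma markers to 4783 and 13173 TPM. The part of these differences in the member values was not tested.

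Across the 12 libraries, the genes whose levels were most like those of a member were named by the Pearson correlation of log2(TPM + 1) among 9241 genes, as a description only, since the libraries fall into elutions and inputs and share these groups for every gene. For *cyb-1* they were *rps-17*, *rpl-7A* and *Y69A2AR.18* (r = 0.99 each), for *cyb-2.1* *F23F1.5*, *sec-61.G* and *F20D1.3* (0.97 to 0.98), and for *cyb-2.2* *adal-1*, *ddi-1* and *Y40H7A.10* (0.97 to 0.99). For *cyb-3* they were *dsh-2*, *ugt-64* and *hpr-17* (0.96 to 0.97), and for *cdk-1* *C55B6.1*, *ceh-49* and *rpb-12* (0.95 each). For *wee-1.3* they were *R05H10.3*, *manf-1* and *nars-2* (0.94 to 0.97), for *cye-1* *C48B4.9*, *ZK643.5* and *K11H3.8* (0.89 to 0.90), and for *cdc-25.3* *usp-46*, *F53F8.3* and *F14H3.4* (0.93 to 0.94). Among the members, the B-type cyclins had correlations of 0.81 to 0.90 with each other, against -0.41 for *wee-1.3* with *cyb-3* and -0.51 for *wee-1.3* with *cdc-25.3*. The cyclin pairs held places 505 to 2442 among 9241 genes, so many other genes correlated better with each cyclin.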

How the data were processed

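The authors pseudo-aligned single-end reads with kallisto 0.43.1 to WBcel235 transcripts (Ensembl release 81), with the transgene and, for elutions, human transcripts added (GENCODE release 24). They deposited an estimated count and a TPM per transcript, and these deposited TPM add up to 1000000 across all RNAs of the index. Here human, spike-in and ribosomal RNA (22 genes) rows were removed, TPM were rescaled to 1000000 and both measures were summed per gene. Ratios carry Poisson intervals (95%, log scale) from the estimated counts and were divided by the median ratio of protein-coding genes with a mean of at least 5 TPM over the inputs, the target left out. With 1 library per condition no test was run. The ratio code was tested on simulated data.

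The members and gene lists were chosen with earlier results of these data known. From each list the text names at most 3 genes, those called in most pulldowns. Symbols were matched for 43693 of 46748 gene identifiers, and coordinates, exons and UTRs came from WBcel235 (Ensembl release 115). Scripts ran in Python 3.11.15 with pandas 2.3.3 and numpy 2.4.6, intervals used scipy 1.17.1, and plots were drawn with matplotlib 3.10.9. Alternatives changed the unit, filter, fold, centring and rows kept. Sequences were not analysed here.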

Additional observations from a re-analysis of the deposited data

Results flagged for a closer look

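Of 16 groups of libraries examined, the 7 elutions and the 4 inputs for each member, 3 held a library farther from the others than Dixon's 95% critical value allows, and chance flags about 1 in 20. These libraries are different conditions and not replicates. In the N2 elution with *alg-1* probes, *cyb-3* stood at 313 TPM, where the next elution had 216 TPM. With the target left out it was at 380 TPM there, below the *gfp::lin-41*, PFA-XL and PAR-XL elutions at 462, 405 and 395 TPM. In the *alg-1* elution *cdc-25.3* stood at 90.1 TPM, on 11 counts, where the next elution had 31.1 TPM. With the target left out these were 109 and 66.9 TPM. Among the inputs, *wee-1.3* stood at 126 TPM in the *gfp::lin-41* input, where the next input had 95.5 TPM. Relative to the median gene, *wee-1.3* was at 1.07 in that input over the N2 input (95% CI 1.02 to 1.13).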

How the results depend on the processing

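Each count of called members was recomputed under alternatives. Adding 1 TPM, CPM in place of TPM, all gene classes and no demand on the interval moved none of the 11 counts by more than 1.5 times. Without division by the median gene, the members called were 5 with PAR-XL, 5 for *gld-1::gfp* with cXL, 4 for *gfp::lin-41*, 6, 4 and 5 with *gld-1*, *lin-41* and *alg-1* probes, and 1 for the DG3913 over the N2 input. In the pulldowns these were below the input, except 1 above with PAR-XL (*wee-1.3*) and 1 with *alg-1* probes (*cdc-25.3*). The median gene is itself more than 2-fold below the input in each pulldown on this scale. No share of all tested genes was computed for it, so these counts are no result about the members. On that scale the log2 values of called members turned negative for *gld-1::gfp* with cXL (*cye-1* -0.39, *cdk-1* -0.75 and *wee-1.3* -0.19) and for *gfp::lin-41* (*cdk-1* -0.035 and *wee-1.3* -0.13), by construction, as the median gene lies below 1. Without a filter, 6 were called with PAR-XL, 8 for *gfp::lin-41*, 6 with *lin-41* probes and 2 for the PAR-XL over the cXL input, and for *gld-1::gfp* with cXL and for *alg-1* probes the median ratio was 0 and gave no value. At 4-fold, 1 was called with PAR-XL, 0 for *gld-1::gfp* with cXL, 0 for *gfp::lin-41*, 0, 1 and 1 with *gld-1*, *lin-41* and *alg-1* probes, and 0 for the PAR-XL over the cXL input. At 1.5-fold, 4 were called with *lin-41* probes, 2 for the PFA-XL over the PAR-XL elution, 1 for the DG3913 over the N2 input and 2 for the PAR-XL over the cXL input. With a mean input TPM of at least 50, which leaves out *cdc-25.3*, 1 was called with *alg-1* probes, 0 for the PFA-XL over the PAR-XL elution and 0 for the PAR-XL over the cXL input. Against genes of similar length, chosen after seeing the data, 1 was called for *gfp::lin-41*. Without a filter, genes of low input also enter the median gene. No share of all tested genes is given under these settings of filter, fold and length, so these counts are no result about the members. Leaving out the target moved 51 of 63 elution levels beyond their counting intervals, and leaving out the 3 entries that overlap ribosomal RNA moved 15 of 108 levels. No paired analysis was possible because each condition has 1 library, and for the same reason no library could be left out. Depth limited *cdc-25.3* most, with 2 to 17 counts in all elutions but that with PFA-XL. The *alg-1* elution was the shallowest, where 3 counts equal 10.6 CPM.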
